A study of Mus musculus with 20 samples.

Results

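B lymphocytes of mouse interscapular brown adipose tissue (iBAT) are described here from single-cell RNA-seq of the immune lineage-positive (Lin+) fraction of the stromal vascular cells. A cell counted as a B cell when its summed corrected counts of Cd79a, Cd79b and Ms4a1 were at least 4, its Cd79a count was at least 1, and its Cd3d, Cd3e and Cd3g counts and its C1qa, C1qb and Siglech counts each summed to less than 1. Cells also had to carry less than 10% mitochondrial counts, fewer than 15000 counts in all, and 300 to 4000 detected genes. The rule gave 6577 B cells among 54289 filtered Lin+ cells (12.1%), in a series of 119468 filtered cells and 20 libraries. The cells were thus selected on measured values of these genes, which are given below as a description only.

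Each of the 10 Lin+ libraries had a partner library of lineage-negative (Lin-) cells from the same mice. Male C57 mice were kept at 24 °C (RT), housed at 6 °C over 4 days (COLD), or given the β3 adrenergic receptor ligand CL316,243 by infusion at 0.75 nmol per hour over the same time (CL). Each of these groups had 2 libraries, 1 from each of 2 independent experiments, so that C57 libraries with equal replicate numbers belong to the same experiment. Female mice of an Adrb1 line were all Adrb1 fl/fl and all received tamoxifen. Their Pdgfra-CreER allele was absent in WT and present in 1 copy in KO, so that the β1 adrenergic receptor gene was targeted in Pdgfra-expressing stromal cells and not in B cells. WT and KO mice each gave 1 library at RT and 1 after cold. Mice were 8 to 14 weeks old and 3 to 4 were pooled per library, so the library is the unit of replication throughout. Line, sex and tamoxifen treatment cannot be told apart. The RT libraries of the Adrb1 line were made with version 3 of the Chromium kit and all others with version 2, so that the effects of kit and temperature cannot be told apart there.

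B lymphocytes recognise antigen through a surface immunoglobulin that signals through the partner chains CD79A and CD79B. A naive B cell carries IgM and IgD with either a kappa or a lambda light chain, circulates through lymphoid follicles under chemokine receptors, and depends on the cytokine BAFF for survival. On activation it may divide, switch its heavy chain to IgG, IgA or IgE, and become a plasma cell that secretes antibody. In fat, B cells are known from the stromal vascular fraction and from small lymphoid clusters.

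A single library stood apart in its barcodes. In C57 CL 2, 1082 filtered barcodes (17.7%) also occurred in its own Lin- library, against 2 to 118 (at most 1.84%) in the other 9 pairs of a Lin+ and a Lin- library and at most 191 (2.07%) in any other pair of libraries. The shared barcodes had a median of 598 counts and the remaining barcodes of that library 2295. Of the B cells of C57 CL 2, 9 carried a shared barcode. Library depth also differed. B cells had a median of 905 counts in C57 CL 1, 1205 to 1663 in the other C57 libraries, 1392 in WT COLD, 1852 in KO COLD, 2295 in WT RT and 2701 in KO RT. Haemoglobin RNA, which belongs to red cells, took 1524 to 55019 counts per 1e+06 of the B cell sums, most in KO COLD. Summed counts over the B cells of a library ran from 267291 in C57 CL 1 to 2418150 in WT RT. The level of a gene below is its share of that sum as CPM (counts scaled to a library sum of 1e+06), and since reads were counted at transcript ends, CPM values are compared between samples or cell classes and not between genes.

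Genes of the B lineage that the rule did not use were high in these cells, although all genes of the selected cells belong to the same readout and are given as a description. Ighd, the constant region of IgD, lay between 505 and 1058 CPM in the B cells of the 10 libraries and averaged 6.32 CPM in T cells (cells with at least 2 Cd3 counts and neither B nor phagocyte genes) and 6.23 CPM in C1q phagocytes (at least 4 counts of C1qa and C1qb). Fcmr, the receptor for the IgM constant region, lay between 478 and 716 CPM in B cells and averaged 1.27 CPM in T cells. Pax5, the factor that maintains B cell identity, lay between 140 and 645 CPM and averaged 0.809 CPM in T cells. Fcer2a, the low-affinity IgE receptor CD23 of follicular B cells, lay between 152 and 343 CPM and averaged 0.579 CPM in T cells. All of these genes were higher in B cells than in T cells in 10 of 10 libraries. Ighm was less restricted, with 2502 to 15581 CPM in B cells and a mean of 175 CPM in T cells, 201 CPM in C1q phagocytes and 956 CPM in plasmacytoid dendritic cells. The tetraspanin Cd37 was broader still, at 641 to 1107 CPM in B cells and a mean of 183 CPM in T cells.

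**Figure D1:**
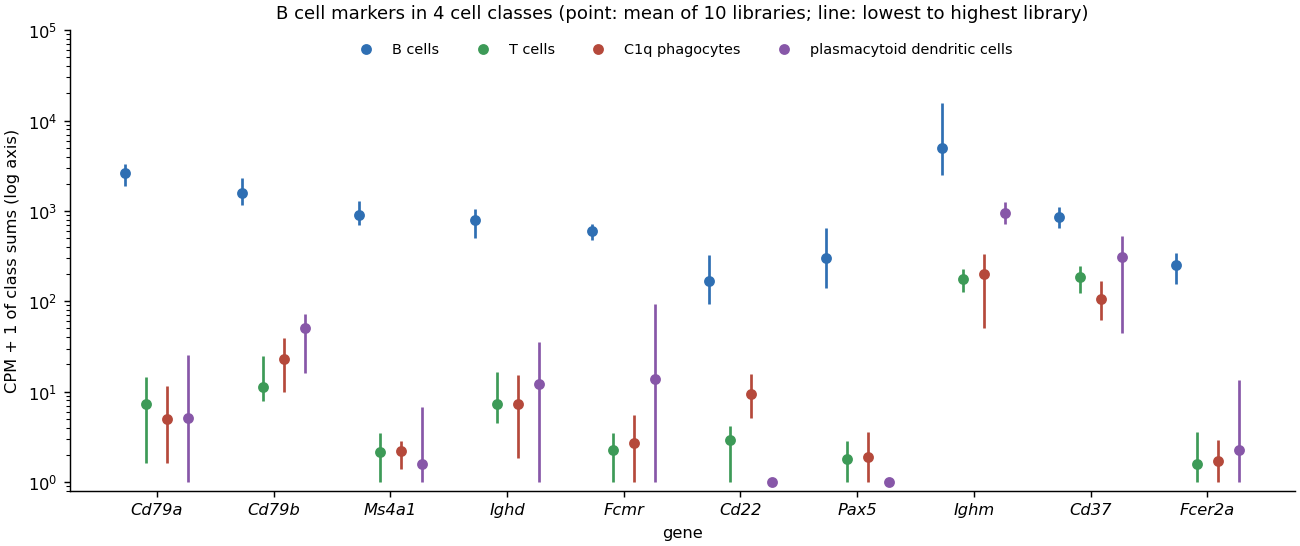
Level of 10 B cell markers in B cells, T cells, C1q phagocytes and plasmacytoid dendritic cells, as CPM plus 1 of each class sum on a log axis. Points are means of 10 Lin+ libraries and lines run from the lowest to the highest library. Cd79a, Cd79b and Ms4a1 chose the cells. Ighd and Fcmr lie at 505 to 1058 and 478 to 716 CPM in B cells.

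The genes of the rule lie in mm10 on chromosome 7 (Cd79a, 24897381 to 24902197, plus strand), chromosome 11 (Cd79b, 106311341 to 106314762, minus strand) and chromosome 19 (Ms4a1, which encodes CD20, 11249675 to 11266241, minus strand). Their median sum per B cell was 8.89, with a median of 4.93 for Cd79a alone. Just inside the threshold, 766 B cells had a sum from 4 to under 5. Just outside it, 590 cells met the rest of the rule with a sum from 3 to under 4. Ighd was detected in 66.4% of the former and 62.5% of the latter, and Fcmr in 52.5% and 55.4%, with median depths of 1344 and 1246 counts. A further 136 cells met the B cell part of the rule and failed on Cd3 genes, and 252 failed on C1q genes or Siglech. Because the correction for free RNA turns a single read into slightly less than 1, 96 B cells still held a trace of a Cd3 gene. In the 10 Lin- libraries, the same rule found 47 cells among 65179 (0.0721%, exact 95% interval 0.0530 to 0.0959).

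B cells made up a smaller part of the Lin+ fraction in each cold library than in any RT library. At RT they were 16.8% (exact 95% binomial interval 15.7 to 17.99, counting error only) and 23.2% (21.96 to 24.4) of filtered cells in the C57 libraries, 26.4% (24.8 to 27.9) in WT and 24.6% (22.8 to 26.4) in KO. After cold they were 3.86% (3.45 to 4.30) and 6.88% (6.27 to 7.53) in the C57 libraries, 6.99% (6.47 to 7.54) in WT and 14.6% (13.5 to 15.8) in KO. The 4 RT libraries did not overlap with the 4 cold libraries. The mean fell from 22.7 ± 4.14% to 8.09 ± 4.60% (SD, n = 4 each), a difference of -14.6 points (two-sided exact permutation test over libraries, p = 0.0286, the smallest that 4 against 4 allow, and 0.0762 after Benjamini-Hochberg adjustment over 4 measures of composition). This test exchanges libraries of both lines and both kits, while WT RT and KO RT are of kit version 3 and all cold libraries of version 2, so that in the Adrb1 line kit and temperature cannot be told apart. The difference was -14.6 points in C57 alone and -14.6 points in the Adrb1 line alone (exact permutation p = 0.333 in each, the smallest that 2 against 2 allow). Without C57 RT 2, WT RT, KO RT or C57 COLD 1 the pooled p was 0.0571 (exact permutation test), with differences of -14.5, -13.4, -14.0 and -13.2 points. In each of these the remaining RT libraries still lay above all remaining cold libraries. A smaller B cell share and a larger number of other Lin+ cells cannot be told apart in such fractions.

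After adjustment no class passed the test. T cells went from 17.8 ± 7.27% at RT to 8.997 ± 4.17% after cold (exact permutation p = 0.0571, adjusted 0.0762 as for B cells), and C1q phagocytes from 13.0 ± 5.00% to 16.6 ± 8.85% (exact permutation p = 0.457, also after adjustment). T cells were a smaller share after cold in each experiment and genotype, at 9.29% and then 4.44% in the first C57 experiment, 15.6% and 8.75% in the second, 19.5% and 8.26% in WT, and 26.7% and 14.5% in KO. Both classes overlapped between temperatures, and in KO the phagocytes went the other way, from 11.2% to 7.95%. Taken among B and T cells only, B cells were 64.4% and 59.8% in C57 RT, 57.5% in WT RT and 48.0% in KO RT. After cold they were 46.5% and 44.0% in C57, 45.8% in WT and 50.2% in KO. By this measure the cold libraries differed from the RT libraries by -10.8 points (exact permutation p = 0.0571, adjusted 0.0762), and the KO libraries were in the opposite order to the rest, since B cells formed 2.22 points more of the lymphocytes in KO COLD than in KO RT.

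Under CL the replicates disagreed. B cells were 3.53% (3.09 to 4.01) of filtered cells in C57 CL 1 and 19.0% (18.04 to 20.02) in C57 CL 2, or 22.9% (21.8 to 24.1) in the latter without the barcodes it shared with its Lin- library. The mean differed from RT by -8.72 points (exact permutation p = 0.667). Phagocytes took 44.5% of C57 CL 1 and 14.5% of C57 CL 2. Among B and T cells only, B cells were 61.7% and 68.5%, within or above the 59.8% to 64.4% of C57 RT, so the direction of the CL difference turned to 2.98 points above RT.

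**Figure D2:**
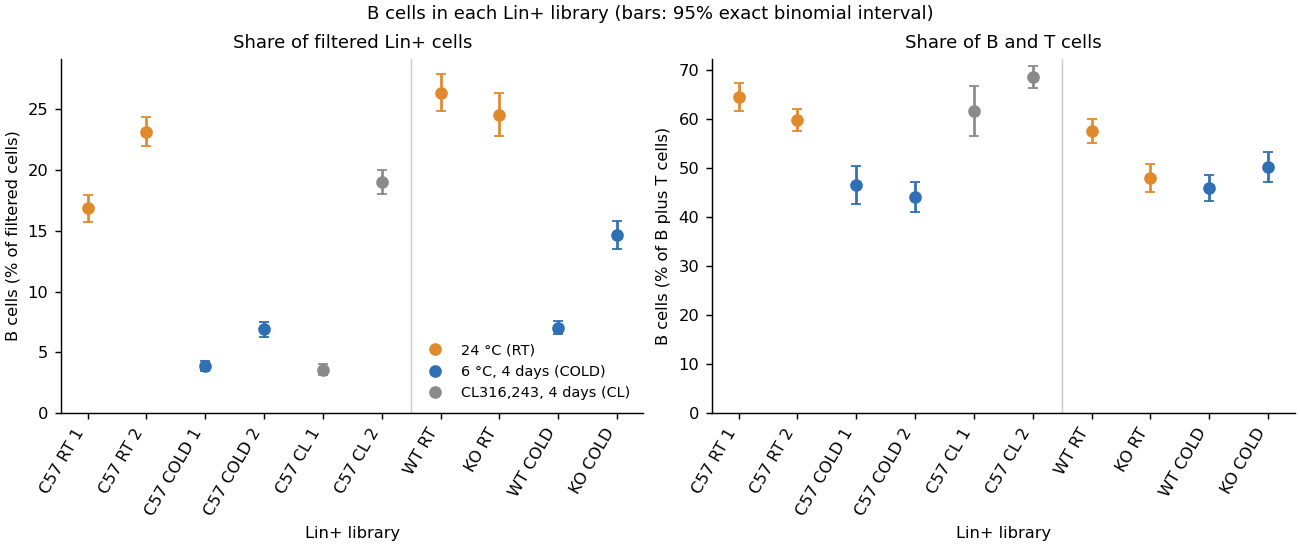
B cells per Lin+ library as a percent of all filtered cells (left) and of B and T cells together (right), with exact 95% binomial intervals. The C57 libraries lie to the left of the grey line and the Adrb1 line to its right. In the left panel all RT libraries (16.8% to 26.4%) lie above all cold libraries (3.86% to 14.6%), and the CL libraries lie at 3.53% and 19.0%.

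Each B cell expresses a single light chain type. Among B cells with at least 5 light chain counts, 56.2% to 80.3% per library had at least 80% of them from Igkc, 3.35% to 6.46% had at least 80% from Iglc1, Iglc2 and Iglc3, and the remaining 15.8% to 39.6% were mixed. Lambda cells were 5.54% and 6.99% of the typed cells in C57 RT, 4.69% and 6.23% in C57 COLD, and 9.15% and 5.96% in C57 CL. They were 9.50% in WT RT, 9.62% in KO RT, 8.37% in WT COLD and 6.39% in KO COLD. Cold and RT differed by -1.49 points (exact permutation p = 0.257, 0.429 adjusted over 5 measures), and the ranges overlapped. How far mixed cells reflect doublets or free immunoglobulin RNA was not tested.

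Ighm was detected in most B cells of every library, and Ighd in 44.1% to 62.4% of them at equal depth. After every cell was thinned to 1000 counts, which left 6140 B cells, Ighd was detected in 51.4% and 54.5% of B cells in C57 RT, 53.7% and 54.2% in C57 COLD, and 53.2% and 55.9% in C57 CL, a narrow range. WT RT and KO RT had 60.5% and 62.4%, and WT COLD and KO COLD had 44.1% and 48.6%, made with the other kit. The same share in T cells was 0.145% to 1.496%. Ighm was detected in 85.4% to 94.7% of B cells and in 12.5% to 24.6% of T cells. Without thinning, Ighd was detected in 59.5% to 85.8% of B cells. A switched heavy chain (IgG, IgA or IgE genes) was detected in 0.419% to 4.26% of thinned B cells in the C57 libraries and 4.45% to 13.9% in the Adrb1 line. The share was 0.419% and 0.863% in C57 RT and 3.31% and 2.96% in C57 COLD. WT went from 4.45% to 13.9% and KO from 9.98% to 11.9%, where the kit changed as well. T cells also went up in each pairing, in C57 from 0% in both RT libraries to 1.64% and 0.183% after cold. The T cells of the Adrb1 line held such counts in 1.48% to 8.35% of cells, with the highest value in KO COLD, where B cells had 11.9%. Background of this size was not removed from the B cell share. Ighd, Ighm, switched heavy chains, lambda light chains and cycling did not pass the test between cold and RT over the 4 and 4 libraries (exact permutation p from 0.114 to 0.543, adjusted 0.429 to 0.543). The test did not pair libraries by experiment or genotype. Within these pairings the switched share was higher and the lambda share lower after cold each time.

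Few B cells met a criterion for proliferation. A sum of at least 2 counts over the proliferation genes Mki67, Top2a, Birc5, Cdk1, Ccna2 and Ube2c was found in 93 B cells in all. These were 0.408% and 0.726% of B cells in C57 RT, 2.61% and 2.05% in C57 COLD, and 0% and 0.515% in C57 CL. WT RT and KO RT had 2.10% and 2.84%, and WT COLD and KO COLD had 2.41% and 1.79%. T cells were at 2.99% to 15.6%, above B cells in every library. The share was higher after cold in C57 and WT and lower in KO, and over all 4 and 4 libraries the difference of 0.695 points had an exact permutation p of 0.343. The share depended on the limit, since with at least 1 count it averaged 6.59% at RT and 8.13% after cold, against 1.52% and 2.21% with at least 2, and the difference was then 1.54 points (exact permutation p = 0.314). With every cell thinned to 1000 counts, cold was above RT in each pairing of libraries. The thinned shares were 0.279% and 0.0959% in C57 RT and 1.24% and 0.809% in C57 COLD. WT went from 0.586% to 1.41% and KO from 0.357% to 0.548%. The difference was then 0.672 points (exact permutation p = 0.0571), with 1 to 8 such cells per library behind it.

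A small set of the B cells held a large part of their RNA in immunoglobulin transcripts. With a limit of 10% of counts in immunoglobulin genes, which was chosen after the values were seen, 72 B cells were above and had a median of 34.3%, against 1.71% in the other 6505. Another 73 cells lay between 5% and 10%, 17 between 10% and 20%, and 55 at 20% or more. All 72 had Jchain, which joins IgM and IgA into polymers, 71 had Xbp1, a factor of secretory cells, and only 10 had Ms4a1 and 8 had Ighd. Their median depth was 10442 counts against 1666. Of these cells, 24 met the proliferation criterion above, out of the 93 that did so in all.

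Their number and heavy chain differed between the lines. The C57 libraries held 13 among 3977 B cells and the Adrb1 line held 59 among 2600. By library the shares were 0% and 0.0907% in C57 RT, 1.30% and 1.14% in C57 COLD, 0.881% and 0.0858% in C57 CL, 2.22% and 2.30% at RT and 2.89% and 1.61% after cold in the Adrb1 line. All 4 libraries of the Adrb1 line lay above all 6 C57 libraries. Among the 59 of the Adrb1 line, 53 were mostly IgA, 5 mostly IgG and 1 mostly IgM. In C57, 8 of the 13 were mostly IgM, of which 5 came from C57 COLD 2, while 4 were mostly IgA and 1 mostly IgG. Line, sex, tamoxifen treatment and the experiments themselves cannot be told apart here. The total count limit also removed some, since 31 cells above 15000 counts passed the same 10% limit. The B cell rule left out another 48 filtered cells above the 10% limit, of which 26 had a Cd79a count below 1. By library these 48 were 0 to 4 in C57, 7 and 8 in WT RT and KO RT, and 17 and 7 in WT COLD and KO COLD.

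**Figure D3:**
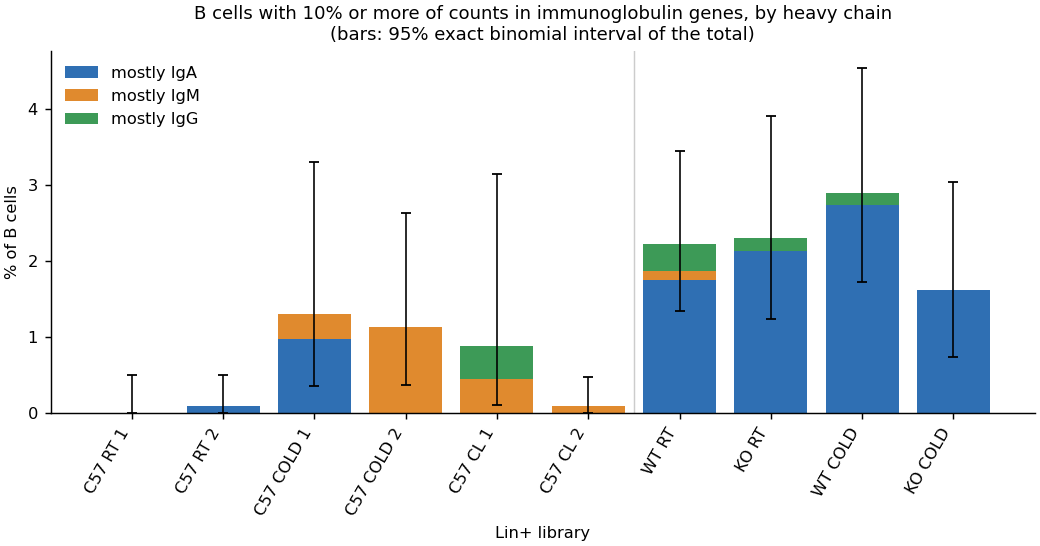
B cells with at least 10% of their counts in immunoglobulin genes, as a percent of the B cells of each library, split by the heavy chain that held most of the heavy chain counts. Error bars are exact 95% binomial intervals of the total. The Adrb1 line (right of the grey line) lies at 1.61% to 2.89%, mostly IgA, and C57 at 0% to 1.30%.

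Immunoglobulin levels differed widely between libraries of the same group. Igha ran from 0 CPM in C57 CL 1 to 1540.4 CPM in C57 COLD 1, and from 6132 to 10931 CPM in the Adrb1 line. Ighm was 2502 and 2926 CPM in C57 RT, 4429 and 15581 CPM in C57 COLD, and 7432 and 3000.4 CPM in C57 CL. Its log2 change after cold of 1.77 ± 0.51 (SE) did not pass the test that follows (edgeR adjusted p = 0.122). Jchain went from 1.54 and 188 CPM in C57 RT to 1697 and 4225 CPM in C57 COLD (edgeR adjusted p = 0.0806, and 0.0141 with the replicate experiment as a block).

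For gene levels after cold, the counts of all B cells of a library were summed and compared over the 6 C57 libraries with edgeR's quasi-likelihood test, adjusted by Benjamini-Hochberg over 7806 genes. Cold changed 94 genes (1.2% of those tested) relative to RT, of which 72 rose (0.922%) and 22 fell (0.282%), and 1186 genes had an unadjusted p below 0.05. The median gene moved by 0.01 on the log2 scale. With the experiment as a block in the same fit, 259 genes were called (3.32%), 161 higher (2.06%) and 98 lower (1.26%), among them all 94. Adjusted p-values below are from the fit without the block unless it is named. Leaving out an RT or COLD library leaves 1 in that group, so a smaller group and the library itself cannot be told apart. The count and its split changed when single libraries were left out. It was 13 without C57 COLD 2, all higher, 43 without C57 COLD 1 (39 higher and 4 lower) and 48 without C57 RT 1 (35 and 13). Without C57 RT 2 it was 100, of which 46 were higher and 54 lower, so that falls then outnumbered rises. It was 242 and 238 without C57 CL 1 and C57 CL 2, with 145 higher in each and 97 and 93 lower. Of 48 genes named from this comparison, 8 were called without each library in turn, namely Plin2, Lgals3, Fabp5, Gpnmb, Cd68, Lgals1 and the chemokines Ccl2 and Ccl9. The count was 37 without the cells in the top 6% of doublet scores and 13 when all sums were thinned to the smallest library. In T cells the same test called 83 genes of 8682 (0.956%), 54 higher (0.622%) and 29 lower (0.334%), or 146 with the block.

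Most genes that rose in B cells after cold were genes that phagocytes express at higher levels. In 65 of the 72 (90.3%) the mean level over the 6 C57 libraries was higher in C1q phagocytes than in B cells, against 44.2% of all genes tested, and in 36 (50.0%) it was more than 5 times as high, against 3.63% of all genes tested. Plin2, which coats lipid droplets, was 13.7 and 22.9 CPM in the B cells of C57 RT, 116 and 173 CPM in C57 COLD, and 47.8 and 34.5 CPM in C57 CL. Both cold libraries were above all other C57 libraries (log2 change against RT 2.82 ± 0.28 SE, edgeR adjusted p = 0.000754), and C1q phagocytes averaged 926 CPM. Lgals3, which encodes the lectin galectin-3, was 114 and 154 CPM in C57 RT, 595 and 781 CPM in C57 COLD and 208 and 206 CPM in C57 CL (2.23 ± 0.24, edgeR adjusted p = 0.00117), against a mean of 4766 CPM in C1q phagocytes. Fabp5, a fatty acid carrier, was 16.4 and 11.7 CPM in C57 RT, 194 and 195 CPM in C57 COLD and 148 and 35.1 CPM in C57 CL (3.67 ± 0.43, edgeR adjusted p = 0.00174).

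Other genes of this kind were absent or nearly absent at RT. Gpnmb, a glycoprotein of lipid-laden macrophages, had no count in the B cells of either C57 RT library and stood at 47.7 and 61.1 CPM in C57 COLD and 23.6 and 4.35 CPM in C57 CL. Against a floor of 3 counts over the RT group it was at least 59.97-fold higher after cold (edgeR adjusted p = 0.00128), and it averaged 441 CPM in C1q phagocytes. Trem2, a lipid receptor of macrophages, was 4.61 and 1.02 CPM in C57 RT and 52.3 and 45.3 CPM in C57 COLD (4.07 ± 0.70, edgeR adjusted p = 0.0123). Spp1, which encodes osteopontin, was 5.37 and 1.03 CPM in C57 RT and 28.8 and 106 CPM in C57 COLD (4.46 ± 0.73, edgeR adjusted p = 0.00925). The macrophage genes Cd68 (2.13 ± 0.26, edgeR adjusted p = 0.00202) and Fcgr1 (2.97 ± 0.58, edgeR adjusted p = 0.0244) rose as well. Gdf15, a stress-induced cytokine, and Emp1, a membrane protein, also rose, with log2 changes of 3.96 ± 0.69 and 3.85 ± 0.60 (edgeR adjusted p = 0.0123 and 0.00774). Spp1, Trem2, Fcgr1, Gdf15 and Emp1 each lost the call without 1 or more of the RT and cold libraries, all of them without C57 COLD 2 (edgeR adjusted p = 0.236, 0.109, 0.524, 0.136 and 0.0748).

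The whole marker list of macrophages moved in part. Of its 12 genes, 7 were higher after cold and 5 lower, 4 rose (Cd68, Fcgr1, Gpnmb and Spp1), beside 0.922% of all genes tested, and none fell, with a median log2 change of 0.47. Its summed level in B cells was 1657 and 2312 CPM in C57 RT, 3088 and 2779 CPM in C57 COLD, and 1211 and 2556 CPM in C57 CL. The cold libraries were the highest, and C1q phagocytes held 26939 to 61167 CPM. C1qa itself, which the rule used to leave cells out, was 23.6 and 27.2 CPM in C57 RT and 26.7 and 18.5 CPM in C57 COLD. The part of phagocyte RNA in these rises, as free RNA or in mixed droplets, was not tested. When the cells in the top 6% of doublet scores were left out, 23 of the 72 rises were still called. In the T cells of the same libraries, 68 of the 70 genes tested were also higher after cold and 16 were called. Of all 7472 genes tested in both classes, 3775 were higher in T cells after cold and 47 were called higher.

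**Figure D4:**
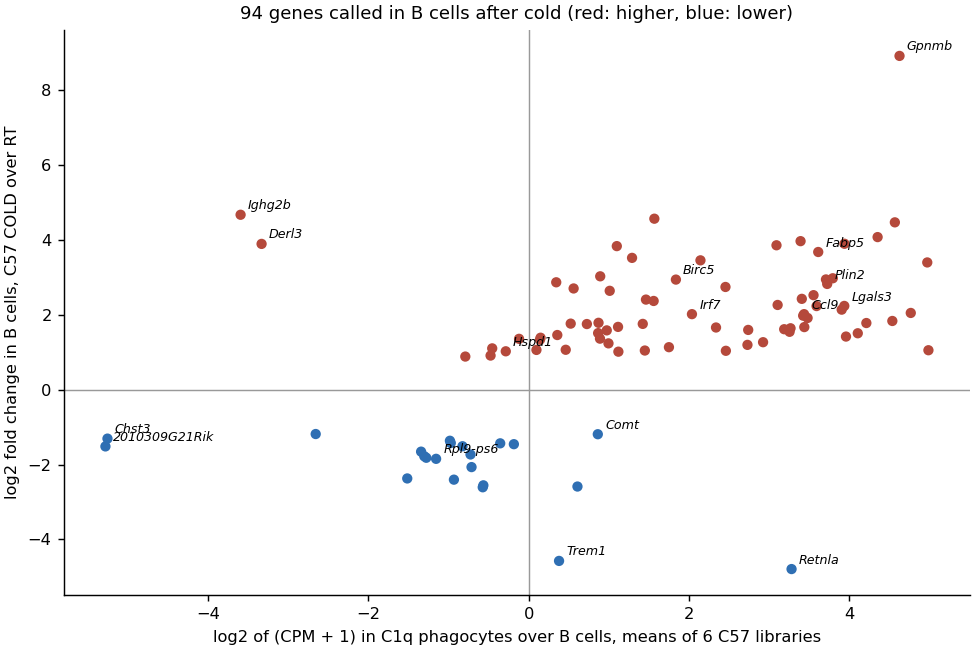
The 94 genes called in B cells between C57 COLD and RT. The horizontal axis is the log2 ratio of mean CPM plus 1 in C1q phagocytes over B cells (6 C57 libraries) and the vertical axis is the fitted log2 change in B cells, which for Gpnmb depends on the prior count since RT is at 0. Of the 72 genes that rose (red), 65 had a higher level in phagocytes. Ighg2b, Derl3 and Chst3 lie far to the left, where phagocytes have almost none.

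The level in B cells was at least that of the other Lin+ cells for 4066 of all 7806 genes tested (52.1%) and for 5 of the 72 rises (6.94%). The 5 were Hspd1, Fkbp4, Derl3, Herpud1 and Ighg2b, named here after their values were seen. Fkbp4 and Herpud1 were not called without any 1 of the RT and cold libraries (edgeR adjusted p from 0.0809 to 0.447). Hspd1, a mitochondrial chaperone, was 75.2 and 82.5 CPM in C57 RT, 191 and 162 CPM in C57 COLD and 177 and 116 CPM in C57 CL (1.02 ± 0.20, edgeR adjusted p = 0.0223). Hspa1a, the inducible HSP70, was 82.8 and 67.2 CPM in C57 RT, 290 and 267 CPM in C57 COLD and 424 and 118 CPM in C57 CL (1.75 ± 0.37, edgeR adjusted p = 0.0412). RT and cold did not overlap for either gene. These were the 2 called members of a list of 10 heat shock genes, beside 0.922% of all genes that rose, all of which were higher after cold, with a median log2 change of 0.57. All 10 were also higher under CL, with a median of 0.70, but none was called there. With the block, Hspa1a was called under CL (edgeR adjusted p = 0.0295). Neither gene was called when any single RT or COLD library was left out.

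Of 10 tested plasma cell genes 1 rose, beside 0.922% of all genes tested, and 9 were higher, with a median log2 change of 1.43. Derl3, which helps clear misfolded proteins from the endoplasmic reticulum, was 1.55 and 3.11 CPM in C57 RT, 20.3 and 58.8 CPM in C57 COLD and 26.1 and 2.65 CPM in C57 CL (3.89 ± 0.77, edgeR adjusted p = 0.0265), and 33.8 to 66.2 CPM in the Adrb1 line. It was the single called member of that list and was not called without C57 RT 1, C57 RT 2 or C57 COLD 2 (edgeR adjusted p = 0.123, 0.0743 and 0.490). Without the immunoglobulin-rich cells Derl3 was below the filter on low counts and was not tested. The same held without the top 6% of doublet scores and with thinned sums. With the block 3 genes of the list were called, beside 2.06% of all genes, Derl3, Jchain and Txndc5 (edgeR adjusted p = 0.0141 and 0.0267 for the last 2). Ighg2b, the IgG2b constant region, had 3 counts in the C57 RT group and 37 in C57 COLD, a ratio of 30.8 (exact 95% interval 9.76 to 156, counting error only, edgeR adjusted p = 0.00972, but 0.0956 and 0.314 without C57 RT 1 and C57 COLD 2). The ER chaperones Manf, Pdia3, Pdia6 and Dnajb11, and Herpud1, were named after their values were seen. They passed with log2 changes of 1.35, 1.04, 1.23, 1.06 and 0.91. Manf, Pdia3 and Herpud1 lost the call without any 1 of the RT and cold libraries, and Pdia6 and Dnajb11 without any of these but C57 RT 2 (edgeR adjusted p from 0.0610 to 0.447). Without the immunoglobulin-rich cells, of which the C57 libraries held 1 at RT, 9 after cold and 3 under CL, the log2 changes were 0.61, 0.77, 0.83, 0.74 and 0.71, and none passed (edgeR adjusted p from 0.0633 to 0.274). Nor did any pass without the cells in the top 6% of doublet scores, with log2 changes of 0.47, 0.66, 0.67, 0.70 and 0.78 (edgeR adjusted p from 0.121 to 0.470). Sdf2l1, an ER chaperone partner, was 18.8 and 28.5 CPM in C57 RT and 110 and 158 CPM in C57 COLD (2.36 ± 0.30, edgeR adjusted p = 0.0023). It also passed without the immunoglobulin-rich cells (1.98, edgeR adjusted p = 0.00318) and without the top 6% of doublet scores (1.63, edgeR adjusted p = 0.0188). It was not called without C57 COLD 2, with a log2 change of 2.02. Of all 94 calls, 71 were kept without the immunoglobulin-rich cells and 36 without the top 6% of doublet scores.

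A part of the proliferation genes rose in the cold libraries. Of 14 tested, 4 rose (Mki67, Birc5, Ube2c and Rrm2), none fell and 13 were higher, with a median log2 change of 0.99, beside 0.922% of all genes tested that rose. Birc5, an inhibitor of apoptosis in mitosis, was 3.85 and 4.09 CPM in C57 RT, 40.5 and 29.1 CPM in C57 COLD and 25.1 and 10.99 CPM in C57 CL (2.94 ± 0.46, edgeR adjusted p = 0.00774). Ccnb2, a mitotic cyclin, had 3 counts in the RT group and 34 in the cold group, a ratio of 28.3 (8.91 to 144, counting error only, edgeR adjusted p = 0.00751). Cdca3, which drives entry into mitosis, was 2.32 and 1.03 CPM in C57 RT and 30.7 and 21.9 CPM in C57 COLD (3.83 ± 0.60, edgeR adjusted p = 0.00774). Both cold libraries were above both RT libraries for each. B cells were below the other Lin+ cells in Birc5 and Ccnb2 in 10 of 10 libraries, and T cells averaged 87.5 and 42.1 CPM. The cells that met the proliferation criterion above, which itself uses Birc5, Mki67 and Ube2c, numbered 3 in C57 RT 1, 8 in C57 RT 2, 8 in C57 COLD 1 and 9 in C57 COLD 2, and their part in these levels was not tested. Markers of dendritic cells moved with them, since all 4 tested were higher after cold, with a median log2 change of 1.79. None of these was called without the block and Flt3 and Xcr1 were called with it, beside 2.06% of all genes that rose with the block. The summed level of the 7 markers in B cells was 26.0 and 42.8 CPM in C57 RT, 134 and 106 CPM in C57 COLD and 51.6 and 30.4 CPM in C57 CL, and their part in the rise of the proliferation genes was not tested. Without the cells in the top 6% of doublet scores, Birc5, Ube2c and Mki67 were not called (edgeR adjusted p = 0.0868, 0.0868 and 0.380), and Ccnb2 was (edgeR adjusted p = 0.0308). The log2 change of Birc5 was then 2.40. Birc5 was not called without C57 COLD 1 or C57 COLD 2 (edgeR adjusted p = 0.0664 and 0.0728), Ube2c without C57 RT 2 or C57 COLD 2, Cdca3 without C57 RT 2 or either cold library, and Ccnb2, Mki67 and Rrm2 without any 1 of the RT and cold libraries (edgeR adjusted p from 0.0656 to 0.491).

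Of 30 interferon-response genes tested in B cells, 2 rose, beside 0.922% of all genes tested, and none fell, 22 were higher and the median log2 change was 0.30. With the block 6 rose, beside 2.06% of all genes, namely Irf7, Bst2, Isg15, Zbp1, Usp18 and Rtp4 (edgeR adjusted p from 0.0146 to 0.0399 for the last 4). Irf7, a factor that amplifies the interferon response, was 19.1 and 29.9 CPM in C57 RT, 80.4 and 138 CPM in C57 COLD and 44.2 and 33.2 CPM in C57 CL (2.01 ± 0.30, edgeR adjusted p = 0.00579). WT RT and KO RT had 35.4 and 23.4 CPM, and WT COLD and KO COLD 63.5 and 82.2 CPM. Bst2, an antiviral membrane protein, was 64.5 and 84.1 CPM in C57 RT and 149 and 184 CPM in C57 COLD (1.03 ± 0.22, edgeR adjusted p = 0.0406). Irf7 did not pass without C57 COLD 2 (edgeR adjusted p = 0.148), and Bst2 without any 1 of the RT and cold libraries (edgeR adjusted p from 0.0536 to 0.432). Of 10 tested genes associated with B1 cells, the innate-like B cells of body cavities, 9 were higher, with a median log2 change of 0.84. With the block 3 rose, beside 2.06% of all genes, Vim among them (1.10 ± 0.25, edgeR adjusted p = 0.0187). Without it 2 rose, beside 0.922% of all genes tested. These were Lgals1, 75.8 and 91.6 CPM in C57 RT and 385 and 315 CPM in C57 COLD (1.91 ± 0.23, edgeR adjusted p = 0.00174), and Anxa2, 48.8 and 68.7 CPM in C57 RT and 262 and 157 CPM in C57 COLD (1.66 ± 0.24, edgeR adjusted p = 0.00474). Anxa2 was not called without C57 COLD 1 (edgeR adjusted p = 0.0574). Both encode broadly expressed proteins and were higher in C1q phagocytes, at means of 1970.2 and 622 CPM. Bhlhe41, a factor of B1 cells, was 6.19 and 14.5 CPM in C57 RT and 10.7 and 11.6 CPM in C57 COLD.

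In 15 of the 22 genes that fell after cold (68.2%) the level in B cells was at or above that of the other Lin+ cells, beside 52.1% of all genes tested. Chst3, a carbohydrate sulfotransferase on chromosome 10 (60181532 to 60219260, minus strand, mm10), was chosen after its values were seen because other cells hold little of it, with means of 0.366 CPM in T cells and 0.476 CPM in C1q phagocytes. It was 83.5 and 80.3 CPM in C57 RT, 27.7 and 42.8 CPM in C57 COLD and 67.3 and 56.5 CPM in C57 CL. The cold libraries were the lowest, and it fell by 1.31 ± 0.25 on the log2 scale (edgeR adjusted p = 0.0238). WT RT and KO RT had 248 and 193 CPM, and WT COLD and KO COLD 47.8 and 43.7 CPM. It kept its direction under every alternative and its call under 11 of 17, and it was not called with DESeq2 (adjusted p = 0.288), after thinning of the sums, without the top doublet scores (edgeR adjusted p = 0.394 and 0.0852), or without C57 RT 1, C57 COLD 1 or C57 COLD 2 (edgeR adjusted p = 0.0883, 0.234 and 0.106).

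Ribosomal pseudogenes were among the falls. Of 7 tested pseudogenes of ribosomal protein genes, 6 fell, beside 0.282% of all genes tested, with a median log2 change of -1.78. The same number fell in T cells, beside 0.334% of all genes there, with a median of -1.92. Rpl9-ps6 was 308 and 218 CPM in C57 RT, 94.96 and 68.4 CPM in C57 COLD and 66.5 and 115 CPM in C57 CL (-1.85 ± 0.29, edgeR adjusted p = 0.00827). Rpl13a-ps1 was 171 and 96.6 CPM in C57 RT, 32.9 and 23.8 CPM in C57 COLD and 44.1 and 40.2 CPM in C57 CL (-2.37 ± 0.33, edgeR adjusted p = 0.00426). Both RT libraries were above the other 4. Of the 81 ribosomal protein genes themselves, 75 were lower and 1 was called, Rps12, with a median log2 change of -0.50. With the block 13 of them fell, beside 1.26% of all genes. Rpl13a-ps1 had the opposite order in the Adrb1 line, at 6.60 CPM in WT RT, 9.39 CPM in KO RT, 52.0 CPM in WT COLD and 56.1 CPM in KO COLD. Rpl13a-ps1 was not called without C57 COLD 2 (edgeR adjusted p = 0.109), and Rpl9-ps6 and Rps12 without either cold library (edgeR adjusted p from 0.0535 to 0.177). Reads of such pseudogenes and of their parent genes are hard to separate, and the levels are uncertain for that reason.

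The remaining larger falls were mostly of genes with higher levels in other Lin+ cells. Retnla, a secreted product of alternatively activated macrophages, was 173 and 187 CPM in C57 RT, 8.75 and 5.44 CPM in C57 COLD, and 21.8 and 140 CPM in C57 CL. It fell by 4.79 ± 0.63 on the log2 scale (edgeR adjusted p = 0.00286), and it fell in T cells too, by 4.06 (edgeR adjusted p = 0.0211). Gzma and Nkg7, genes of cytotoxic lymphocytes, fell by 2.61 and 2.40 (edgeR adjusted p = 0.0259 and 0.015) from 29.8 to 45.8 CPM at RT to 6.27 to 7.94 CPM after cold. G0s2, an inhibitor of lipolysis, fell by 2.59 and Wfdc21 by 2.56 (edgeR adjusted p = 0.00925 and 0.0229). None of the 5 was called without C57 COLD 2 (edgeR adjusted p from 0.0929 to 0.267), nor, Retnla apart, without C57 COLD 1 (0.0664 to 0.161), and Gzma and Nkg7 also not without C57 RT 2 nor Wfdc21 without C57 RT 1 (0.0733 to 0.0832). B cells were below the other Lin+ cells in Gzma, Nkg7 and G0s2 in 10 of 10 libraries. The neutrophil marker list, at 3121 and 1409 CPM in C57 RT and 238 and 264 CPM in C57 COLD within the B cell sums, moved in the same direction, and 3 of its 4 tested genes fell with the block, beside 1.26% of all genes. Its part in these falls was not tested.

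Core B cell genes did not pass the test between cold and RT without the block. In lists of 22 and 19 genes, no call cannot be told apart from the 1.2% called among all genes. Of 22 tested genes of antigen receptor signalling, none was called, 9 were higher and the median log2 change was -0.05, beside the 1.2% called among all genes, and none with the block. Syk, the kinase that the receptor activates, was 261 and 240 CPM in C57 RT and 267 and 184 CPM in C57 COLD. Cd22, an inhibitory co-receptor, was 131 and 141 CPM in C57 RT and 133 and 109 CPM in C57 COLD. Of 19 transcription factors none was called, but 14 were lower, with a median of -0.39. Pax5 was 269 and 261 CPM in C57 RT, 164 and 172 CPM in C57 COLD and 321 and 218 CPM in C57 CL, without overlap between RT and cold (-0.78 ± 0.20, edgeR adjusted p = 0.0892). With the block 2 of the 19 fell, beside 1.26% of all genes tested, Pax5 (-0.78 ± 0.21, edgeR adjusted p = 0.0478) and Bach2, a repressor of plasma cell formation. Bach2 was 222 and 175 CPM in C57 RT, 86.6 and 123 CPM in C57 COLD and 157 and 141 CPM in C57 CL, without overlap between RT and cold (-1.03 ± 0.23, edgeR adjusted p = 0.0179 with the block and 0.0534 without it). Ebf1, which specifies the lineage with Pax5, was 1989.9 and 2138 CPM in C57 RT and 1477 and 1728 CPM in C57 COLD (-0.50 ± 0.32, edgeR adjusted p = 0.482).

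The BAFF and survival list of 10 tested genes, the follicular list of 13, the 11 class II antigen presentation genes and the 14 immediate early genes each had no call, with medians of -0.10, -0.05, 0.01 and 0.21. Over all genes 1.2% were called, and no call in lists of this size cannot be told apart from that share. With the block a single gene of these lists passed, beside 1.26% of all genes that fell. It was Bcl2a1d of the survival list, which was lower after cold (-1.15 ± 0.31, edgeR adjusted p = 0.0491). Tnfrsf13c, the BAFF receptor, was 96.6 and 154 CPM in C57 RT and 120 and 159 CPM in C57 COLD. Cxcr5, which guides B cells to follicles, was 115 and 144 CPM in C57 RT and 190 and 162 CPM in C57 COLD (0.30 ± 0.19, edgeR adjusted p = 0.485). H2-Aa, a class II chain, was 4179 and 5452 CPM in C57 RT and 5014 and 6419 CPM in C57 COLD, and RT and cold overlapped for Tnfrsf13c and H2-Aa. Among 8 germinal centre genes 2 could be tested and neither was called. The β adrenergic receptor genes Adrb1 and Adrb3 did not exceed 3.74 and 3.73 CPM and were too low for the test.

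The CL response in B cells depended on whether the experiment was taken as a block. Without the block a single gene was called, and with it 20 (0.256%), of which 12 were higher (0.154%) and 8 lower (0.102%). Ccl8, a chemokine of tissue macrophages, was 8.26 and 4.07 CPM in C57 RT, 94.8 and 50.6 CPM in C57 CL, and 10.2 and 6.28 CPM in C57 COLD (3.34 ± 0.39, edgeR adjusted p = 0.00916, 0.0128% of the 7806 genes tested). No gene fell without the block (0.0%), and 372 genes had an unadjusted p below 0.05. C1q phagocytes held 192 to 3899 CPM of Ccl8 and B cells were below the other Lin+ cells in all 10 libraries. With the block all 4 tested genes of the stromal marker list were called higher, Col3a1, Col1a2, Dcn and Gsn, as were 2 of 3 tested adipocyte markers, Car3 and Ucp1. Car3, a carbonic anhydrase of adipocytes, was 0.752 and 1.03 CPM in C57 RT, 118 and 17.0 CPM in C57 CL, and 8.10 and 1.33 CPM in C57 COLD (5.54 ± 0.59, edgeR adjusted p = 0.000148 with the block and 0.123 without it). Car3 also served the authors' correction as a gene that these cells do not express. Col3a1, a collagen, was 2.04 and 5.03 CPM in C57 RT and 14.6 and 56.4 CPM in C57 CL (3.32 ± 0.44, edgeR adjusted p = 0.00223 with the block and 0.0894 without it). The summed adipocyte markers were 340.4 and 103 CPM in the B cells of C57 RT and 2063 and 107 CPM in C57 CL, and the summed stromal markers 42.5 and 82.7 CPM and then 84.6 and 354 CPM, and their part in these calls was not tested. Of the 8 falls with the block, 5 were ribosomal pseudogenes, and Nkg7 and Lyz1 were 2 of the others. Ccl8 was called without each library in turn, and not when the sums were thinned (edgeR adjusted p = 0.391). The number called was 93 without C57 CL 2, 14 without C57 RT 2 and 6 without C57 CL 1. No list of B cell genes had a call in either fit. In lists of this size that cannot be told apart from the 0.0128% and 0.256% called among all genes.

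Cold and CL differed in 5 genes (0.0641%), 4 higher after cold (0.0512%) and 1 lower (0.0128%). Plin2, Cd68, Lgals3 and the chemokine Ccl9 were higher after cold, by 1.83, 1.76, 1.64 and 1.58 on the log2 scale (edgeR adjusted p = 0.0412, 0.0412, 0.0412 and 0.0271), and Ccl8 was lower by 2.96 ± 0.45 (edgeR adjusted p = 0.0412). Ccl9 was 41.2 and 53.7 CPM in C57 RT, 211 and 215 CPM in C57 COLD and 79.1 and 60.7 CPM in C57 CL. All 5 are genes of which C1q phagocytes held more than B cells, at means of 759 to 4766 CPM. The contrast shares its libraries with the other 2 and is not independent of them. With the block 40 genes were called (0.512%), 31 higher after cold (0.397%) and 9 lower (0.115%), among them the 5. Irf7 was higher after cold than under CL by 1.64 ± 0.25 (edgeR adjusted p = 0.00559 with the block and 0.120 without it) and Retnla lower by 3.95 ± 0.57 (0.00292 and 0.0584). Rgs1, a regulator of G protein signalling named here after its values were seen, was 51.5 and 169 CPM in C57 COLD, 10.6 and 24.0 CPM in C57 CL and 12.6 and 29.8 CPM in C57 RT (2.56 ± 0.27, edgeR adjusted p = 0.00027 with the block and 0.197 without it). Without the block the contrast had no call when C57 COLD 2 was left out with edgeR (365 genes at an unadjusted p below 0.05) and 43, 19, 17 and 12 without C57 CL 1, C57 CL 2, C57 RT 1 and C57 RT 2. Without C57 CL 2 only 2 of the 5 genes were still called, as Plin2, Cd68 and Ccl9 were not (edgeR adjusted p = 0.271, 0.349 and 0.0751), and without C57 COLD 1 Ccl8 and Ccl9 were not (0.0856 and 0.0525).

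In the Adrb1 line, cold and RT differed in 4282 of 9055 genes (47.3%), with 2221 higher (24.5%) and 2061 lower (22.8%). The kit version changed with temperature, so these counts do not measure cold, and the values of the C57 genes are given beside them as a description. Of the 72 genes that rose in C57, 68 were higher in the Adrb1 line after cold and 62 were called higher, with none called lower. Of the 22 that fell in C57, 17 were higher in the Adrb1 line and 14 of these were called higher, while 4 were called lower, among them Chst3 (-1.82 ± 0.19, edgeR adjusted p = 2.13e-05) and Retnla (-1.72 ± 0.43, edgeR adjusted p = 0.00455). Gpnmb had no count at RT in either genotype and stood at 36.9 CPM in WT COLD and 16.5 CPM in KO COLD. Spp1 was 1.23 and 0 CPM at RT and 317 and 400 CPM after cold, and Ccl7, a chemokine, 1.22 and 1.10 CPM and then 233 and 311 CPM. Both are higher in C1q phagocytes, at means of 891 and 1130.1 CPM.

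Between KO and WT, which are matched for temperature and kit in 2 libraries each, no gene of 9055 was called with edgeR (0.0%), with 122 at an unadjusted p below 0.05. DESeq2 called none either, with 24 at an unadjusted p below 0.05, while edgeR called 17 without the filter on low counts and 1 in a fit of the 4 libraries of the line alone. The largest falls by the naming rule were of Ighg1, 507 CPM in WT RT, 7.86 CPM in WT COLD, 0 CPM in KO RT and 7.29 CPM in KO COLD (edgeR adjusted p = 0.68), and of Ighg2b, 381 and 243 CPM in WT and 196 and 130 CPM in KO (edgeR adjusted p = 1). All 13 follicular genes and all 11 class II genes were slightly higher in KO, with medians of 0.12 and 0.16, beside a median of 0.01 over all genes. All 10 heat shock genes were higher as well, with a median of 0.28. Proliferation genes leaned the other way, with 2 of 15 higher in KO and a median of -0.84, and no list had a call. Of 5 tested dendritic cell markers 1 was higher in KO, with a median of -1.25, and of 12 macrophage markers 6 were higher. The part of such cells in the lean was not tested. Adrb1 was 0 CPM in B cells of WT RT, WT COLD and KO COLD and 0.551 CPM in KO RT, so these cells do not serve as a check of the deletion.

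The response to cold differed between B and T cells of the same 6 C57 libraries in 73 of 9198 genes (0.794%), 50 toward B cells (0.544%) and 23 toward T cells (0.25%), and the response to CL in 3 (0.0326%). Interferon-response genes stood on the T cell side. Of 36 tested, 34 had a smaller change in B cells, the median difference was -0.89 on the log2 scale and 2 were called (Slfn5 and Ly6a), beside a median of 0.03 over all genes. In T cells themselves 20 of 35 rose after cold, beside 0.622% of all genes tested there, with a median of 1.56. In B cells 2 of 30 rose, beside 0.922%. With the block the counts were 23 of 35 in T cells, beside 1.05% of all genes that rose there and 1.68% called in either direction, and 6 of 30 in B cells, beside 2.06%. Ly6a, an interferon-inducible surface protein, went from 123 and 154 CPM to 669 and 584 CPM in T cells. All 11 class II genes were on the same side, with a median of -0.62 and 2 calls, beside 0.25% of all genes called on that side. Over the 10 libraries their summed level was 1540 to 19980 CPM in T cells and 17226 to 39726 CPM in B cells. The part of RNA from other cells in these T cell levels was not tested. H2-Oa was 274 and 381 CPM in the B cells of C57 RT and 350 and 344 CPM in C57 COLD, and differed by -1.06 ± 0.26 (edgeR adjusted p = 0.0433). Ciita, the master regulator of class II genes, was 86.9 and 156 CPM in C57 RT and 116 and 134 CPM in C57 COLD, and differed by -1.24 ± 0.30 (edgeR adjusted p = 0.0374). RT and cold overlapped in B cells for both, and the log2 changes in T cells were 0.98 and 1.11, which did not pass the test alone (edgeR adjusted p = 0.0997 and 0.225). Macrophage markers moved in the T cell sums as well, with 3 of 12 called higher after cold (5 with the block), 8 higher and a median log2 change of 0.68. Their summed level there was 1236 and 1710.5 CPM in C57 RT and 1823 and 1952 CPM in C57 COLD, and their part in the interferon and class II differences was not tested.

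Proliferation genes stood on the B cell side, with 14 of 15 positive, 3 called on that side beside 0.544% of all genes, and a median of 0.65. All 7 dendritic cell markers stood on that side too, with none called and a median of 1.54. Their part in the proliferation difference was not tested. Birc5 differed by 2.60 ± 0.42 (edgeR adjusted p = 0.000563) and rose by 0.34 in T cells. Its T cell levels were 25.0 to 194 CPM, a range that overlaps with its levels in B cells. Fabp5 differed by 3.35 ± 0.35 (edgeR adjusted p = 1.03e-06). In T cells it was 129 and 44.7 CPM in C57 RT and 130 and 105 CPM in C57 COLD, so both groups were within the same range there. Of 12 B1-associated genes 5 were called on the B cell side, beside the same 0.544% of all genes, among them Lgals1 (2.22 ± 0.27, edgeR adjusted p = 6.22e-06) and Vim, a filament protein (1.27 ± 0.24, edgeR adjusted p = 0.00513). Igkc and Iglc1 differed by 2.71 and 4.09 (edgeR adjusted p = 0.00186 and 0.0379), with T cell levels of Igkc at 37.5 and 42.7 CPM at RT and 16.9 and 25.0 CPM after cold, beside 8539 to 46929 CPM in B cells. For genes that T cells express and B cells barely do, such as Gzmb and Trbc1, the difference describes traces in the B cell sums, at 0 to 16.2 CPM.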

How the data were processed

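Cells of the Lin+ and Lin- fractions were sequenced on the Chromium platform, and the deposited matrices hold expected counts per gene and barcode. The authors made them with Cell Ranger 3.0.1 and mm10, per the submitters' processing notes, and then subtracted free RNA with SoupX, taking Fabp4 and Car3 as genes that the cells do not express, so values are mostly not whole and low counts are lowered. Genes (31053) carry symbols only. Gene positions were taken from the GENCODE vM21 annotation of the same build.

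Members and gene lists were chosen with earlier results of these data known. Cells were filtered and classed by the limits given in the text. T cells needed a Cd3 sum of at least 2, C1q phagocytes at least 4 counts of C1qa and C1qb, and plasmacytoid dendritic cells at least 2 of Siglech. Counts were summed per library and class, rounded, and fitted with edgeR 4.0.16 (R 4.3.3, TMM, filterByExpr, quasi-likelihood F test, Benjamini-Hochberg, threshold 0.05). The 6 C57 libraries shared 1 fit and all 10 libraries another, with a genotype term. B and T sums were compared in their responses with the library as a block. A test of B against T levels was run, but such levels belong to the rule, so its result is not reported. Standard errors are the log2 change divided by the root of F. Shares were compared by two-sided exact permutation tests over libraries. Doublets were kept. Scrublet (scanpy 1.11.5) called 5 B cells, and an alternative left out the top 6% of scores, which held 258. On simulated counts with log2 changes of 2 in either direction and the same dispersion for all genes, the 6-library fit recovered 86.7% of changed genes. Smaller changes were not simulated. The study does not say which mice entered which pool, so p-values measure the spread between pools.

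Genes were named by a rule: in each contrast, up to 10 rises and 10 falls of largest size among genes called, without overlap between groups and with at least 20 CPM in the higher group, filled up to 5 by p as values only, the called members of each list and otherwise up to 4 of its most abundant members, and all markers. The Chst3, chaperone and adrenergic receptor values were chosen after they were seen. B cell sums of 2 replicates were compared over genes, and chi-square divided by its degrees of freedom was 5.30 to 8.99, above sampling noise. Per the study's methods, C57 libraries of equal replicate number came from the same experiment. The fit with this number as a block is therefore printed beside the other for the numbers of genes called in B cells. It is also printed for some, but not all, of the genes and lists whose calls it changed. Deviations of same-numbered libraries from their group means correlated at r = 0.139 (RT and COLD), 0.0777 (RT and CL) and 0.127 (COLD and CL), and haemoglobin was 1524 to 2718 CPM in the B cells of the first experiment and 20179 to 27917 CPM in the second. The blocked T cell fit, Bach2 and Rgs1 were chosen after the data were seen. Other alternatives were the size factors, no filter, DESeq2 1.42.0, thinning, stricter rules and leaving out libraries or cell sets.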

Additional observations from a re-analysis of the deposited data

Results flagged for a closer look

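The results here stood out because a response differed between B and T cells, because genotypes moved in opposite directions, or because B cells appeared in libraries outside the comparisons. For the B cell share after cold, KO COLD stood at 14.6% against 3.86% to 6.99% in the other 3 libraries, which did not reach the limit of Dixon's test for 4 samples, a test of little power at that number.

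Between B and T cells, the cold response differed most toward B cells for Ccnb2 (4.52 on the log2 scale), Iglc1 (4.09), Lyz1 (3.63), Cdca3 (3.58), Ube2c (3.39), Fabp5 (3.35), Emp1 (2.85), Fabp4 (2.74), Igkc (2.71) and Birc5 (2.60). Lyz1, a lysozyme of phagocytes, moved little in B cells (27.1 and 44.1 CPM in C57 RT, 46.1 and 32.4 CPM in C57 COLD) and went from 126 and 201 CPM to 28.4 and 6.21 CPM in T cells. The differences toward T cells were largest for Gzmb (-5.69), S100a8 (-3.67), Trbc1 (-2.91), Gzma (-2.74), Nkg7 (-2.60), S100a9 (-2.54), Slc7a11 (-2.37), Bcl11a (-2.10), Kmo (-2.08) and Cd180 (-1.74). S100a8, a neutrophil gene, was 1642 and 776 CPM in the B cells of C57 RT and 85.5 and 120 CPM in C57 COLD. For the CL response the genes were Retnla (3.17), Fabp5 (2.60) and Bcl2a1b (1.36). Retnla in T cells was 287 and 611 CPM in C57 RT and 15.7 and 32.9 CPM in C57 CL, while in B cells it was 173 and 187 CPM and then 21.8 and 140 CPM.

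Among B and T cells, the B cell share changed with cold by -11.7 points in WT and by 2.22 points in KO. Each value rests on 1 library per temperature, and the difference was not tested.

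The rule found B cells in 9 of the 10 Lin- libraries, which are outside the comparisons. There were 6 in C57 COLD 1, 7 in C57 CL 1, 6 in C57 RT 2, 6 in C57 COLD 2, 8 in WT RT and 5 in WT COLD, 3 each in C57 RT 1, C57 CL 2 and KO COLD, and 0 in KO RT. The share was at most 0.166% of filtered Lin- cells.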

How the results depend on the processing

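All C57 cold alternatives of the B cell share kept its direction. Over both lines the difference was -12.1 points with a rule sum of at least 6 and -10.8 among B and T cells (exact permutation p = 0.0571 in each), -14.6 in the Adrb1 line alone (exact permutation p = 0.333), and -16.8 to -13.2 points when a library was left out. For CL it turned to 2.98 points among B and T cells. For cold against RT, CL against RT and cold against CL, the numbers of genes called were 386, 89 and 89 without a filter on low counts, and 56, 3 and 1 with DESeq2. They were 13, 0 and 0 with sums thinned to the smallest library (edgeR, 276 and 194 genes at an unadjusted p below 0.05 in the last 2), and ran from 13 to 242, 1 to 93 and 0 to 43 when a library was left out. Without the top doublet scores cold against RT had 37 calls and cold against CL 0 (261 unadjusted). A rule sum of at least 6 left cold against CL with 0 calls (318 unadjusted) and dropping the immunoglobulin-rich cells with 8. The 10-library fit gave 144 for cold against RT and 10 for cold against CL. With the replicate experiment as a block the 3 counts were 259, 20 and 40, and the 94, 1 and 5 genes called without it all kept the call. KO against WT had 17 calls without a filter and 1 in the 4 libraries of the line, and cold in that line had 2273 with DESeq2. The difference in cold response between B and T cells had 113 calls without a filter, 18 thinned and 11 with DESeq2, and that in CL response 25 and, with DESeq2, 0 (67 unadjusted). The causes were not tested. Over 54 gene results, 662 alternatives kept the call, 236 lost it and none reversed. Depth limits C57 CL 1 most, with 267291 counts in 227 B cells. Alternatives that leave out shared barcodes, immunoglobulin-rich cells or C1q phagocytes, or that count B and T cells only, were chosen after the data were seen.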
